A study of Mus musculus with 4 samples.

Results

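Cytotoxic effector genes are the genes through which killer lymphocytes act. Here 10 of them, picked by symbol, were followed out of 31053 genes in the files: the perforin gene Prf1, the granzyme genes Gzma, Gzmb and Gzmk, the granule membrane gene Nkg7, the death ligand gene Fasl, the cytokine genes Ifng and Xcl1, and the receptor genes Klrk1 and Klrd1. Each symbol matched 1 row. The list was set by symbol and not by a cut on measured values, but with earlier results of these data known. The study captured CD45+ cells, that is cells of blood origin and microglia, from spinal cords of 3-month-old C57BL/6 mice and counted their RNA molecules one cell at a time with droplet 3′ sequencing. There were 4 libraries. Sham mice, which had their laminae removed but the cord left whole, gave a library made by the standard dissociation and another made with actinomycin D (ActD), a transcription blocker that keeps cells from making new RNA while they are isolated. Mice with a weight-drop contusion at T10 gave 1 library at 3 days post-injury (3 dpi) and 1 at 14 dpi, both with ActD. All of these mice were of the same wild-type background, and both sexes were used. The methods give a total of mice over the control, 3 dpi and 14 dpi groups, but how many went into each library is not given in the sources used here.

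Killer lymphocytes kill by contact. Perforin opens a path for granzymes, which are serine proteases that start cell death in the target, and Fas ligand does the same through the receptor Fas on the target. Natural killer (NK) cells carry ready-made granules and read targets through receptors such as NKG2D, the product of Klrk1, and CD94, the product of Klrd1, which pairs with NKG2 proteins. CD8 T cells load granules after they meet antigen, while CD4 and gamma-delta T cells are better known for cytokines. Interferon gamma, the product of Ifng, acts on macrophages and microglia, and the chemokine encoded by Xcl1 attracts the cross-presenting dendritic cells (DCs) called cDC1, which carry its receptor Xcr1.

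Gzma and Gzmk lie side by side on chromosome 13, 70626 bases apart, and Klrd1 and Klrk1 are 11547 bases apart on chromosome 6. The 250 bases before the RefSeq start site (build GRCm38.p6) are printed for perforin and the 3 granzymes, since Prf1 and Gzma were each the gene closest in level to the other across cell classes whereas Gzma was highest in NK cells and Gzmk in CD8 T cells. Capitals mark matches on either strand to TCACAC (the core of T-box factors, read GTGTGA on the other strand) or TGTGGT (the core of Runx factors, read ACCACA).
Prf1, chr10:61297586-61297835, plus strand: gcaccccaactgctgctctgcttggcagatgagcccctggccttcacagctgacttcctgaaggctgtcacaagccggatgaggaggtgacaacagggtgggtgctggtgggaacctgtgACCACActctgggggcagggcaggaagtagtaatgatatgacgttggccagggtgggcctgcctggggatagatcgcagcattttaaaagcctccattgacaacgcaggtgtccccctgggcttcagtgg
Gzma, chr13:113100982-113101231, minus strand: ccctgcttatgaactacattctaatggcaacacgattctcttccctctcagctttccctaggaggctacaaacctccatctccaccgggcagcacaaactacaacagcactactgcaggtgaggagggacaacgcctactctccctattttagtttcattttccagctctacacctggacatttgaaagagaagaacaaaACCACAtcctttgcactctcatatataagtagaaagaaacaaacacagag
Gzmb, chr14:56262335-56262584, minus strand: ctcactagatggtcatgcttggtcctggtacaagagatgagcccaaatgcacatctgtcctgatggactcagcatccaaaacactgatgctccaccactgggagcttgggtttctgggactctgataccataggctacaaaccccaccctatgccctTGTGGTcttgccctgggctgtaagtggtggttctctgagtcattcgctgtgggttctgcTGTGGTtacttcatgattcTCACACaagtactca
Gzmk, chr13:113180966-113181215, minus strand: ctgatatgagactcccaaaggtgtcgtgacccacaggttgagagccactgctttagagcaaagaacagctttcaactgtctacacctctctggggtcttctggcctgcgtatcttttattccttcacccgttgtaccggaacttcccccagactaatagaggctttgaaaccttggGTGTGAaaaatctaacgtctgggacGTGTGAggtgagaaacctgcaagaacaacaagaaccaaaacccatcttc
Prf1 held 1 Runx match, 130 bases before the start, and Gzma held 1, 50 bases before it. Gzmb held Runx matches 93 and 34 bases and a T-box match 15 bases before the start, and Gzmk held T-box matches 74 and 49 bases before it and no Runx match. A promoter sequence was at hand for 9 of the 10 members. Among these 9, 4 held the T-box letters and 6 the Runx letters, compared with 12.3% and 14.0% of 32851 mouse promoters of the same length. The letters TTCNNNGAA of STAT factors were in 2 of the 9, Nkg7 and Ifng, compared with 7.02% of all promoters. These are matches of letters only and show no binding.

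After removal of low-quality cells, likely doublets and cells with a mix of lineage markers, 5099 cells of the standard sham, 2139 of the ActD sham, 8342 of the 3 dpi and 9208 of the 14 dpi library remained, with a median of 7477 to 9681 unique molecular identifiers (UMIs, 1 per captured RNA molecule) per cell. Between 3 and 36 cell barcodes were shared by any pair of libraries. Cells were grouped within each library by clusters named from marker genes, and neither the 10 members nor the pathway genes named below took part in the clustering. NK cells were 210 at 14 dpi and 34 at 3 dpi. CD8 T cells, taken as cells of T clusters with a UMI of Cd8a or Cd8b1 and none of Cd4, were 261 and 145. CD4 T cells, defined the other way round, were 207 and 206, gamma-delta T cells 122 and 24, and T cells that showed neither or both 151 and 136. At 14 dpi, 87.6% of NK cells had a UMI of Ncr1 and 0.952% of Cd3e, and 96.9% of CD8 T cells had one of Cd8b1 and 0.383% of Ncr1. The 34 NK cells at 3 dpi had Ncr1 in 64.7% and Cd3e in 5.88%, at a median depth of 2914 UMIs. These markers served to name the clusters or to pick the cells, so the shares describe the classes and are no separate check of them. In the sham libraries T cells were few. The single T cluster of the standard sham, 42 cells, held T and NK cells together, since 35.7% of its cells had a UMI of the NK marker Klrb1c and 57.1% of Cd3e. Each condition was 1 library, so no test between conditions was possible and no p-value is given. Levels are UMIs scaled to a class total of 1000000 UMIs (CPM), and every interval is an exact 95% interval that covers counting error only.

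The 10 members together were most abundant in NK cells, then in CD8 T cells, and then in the T cells that were not split. At 14 dpi they made up 12450.5 CPM of NK cells (12244 to 12659), 3829 CPM of CD8 T cells (3732 to 3928), 1097 CPM of CD4 T cells (1035 to 1162), 2365 CPM of unsplit T cells and 397 CPM of gamma-delta T cells (347 to 451). At 3 dpi the order was the same, with 8211 CPM in NK, 3063 in CD8, 954 in CD4 and 231 in gamma-delta T cells. The intervals of these 4 named classes did not overlap at either time. As background, B cells had 22.3 CPM at 14 dpi and 57.1 CPM at 3 dpi, and microglia 11.6 and 11.2 CPM. Of the 29614 UMIs of the members counted at 14 dpi, 46.8% were in NK and 30.8% in T cells, although NK cells were 2.28% of the cells. At 3 dpi NK cells were 0.41% of the cells and held 11.9% of 7543 UMIs, with T cells at 43.3%.

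**Figure D1:**
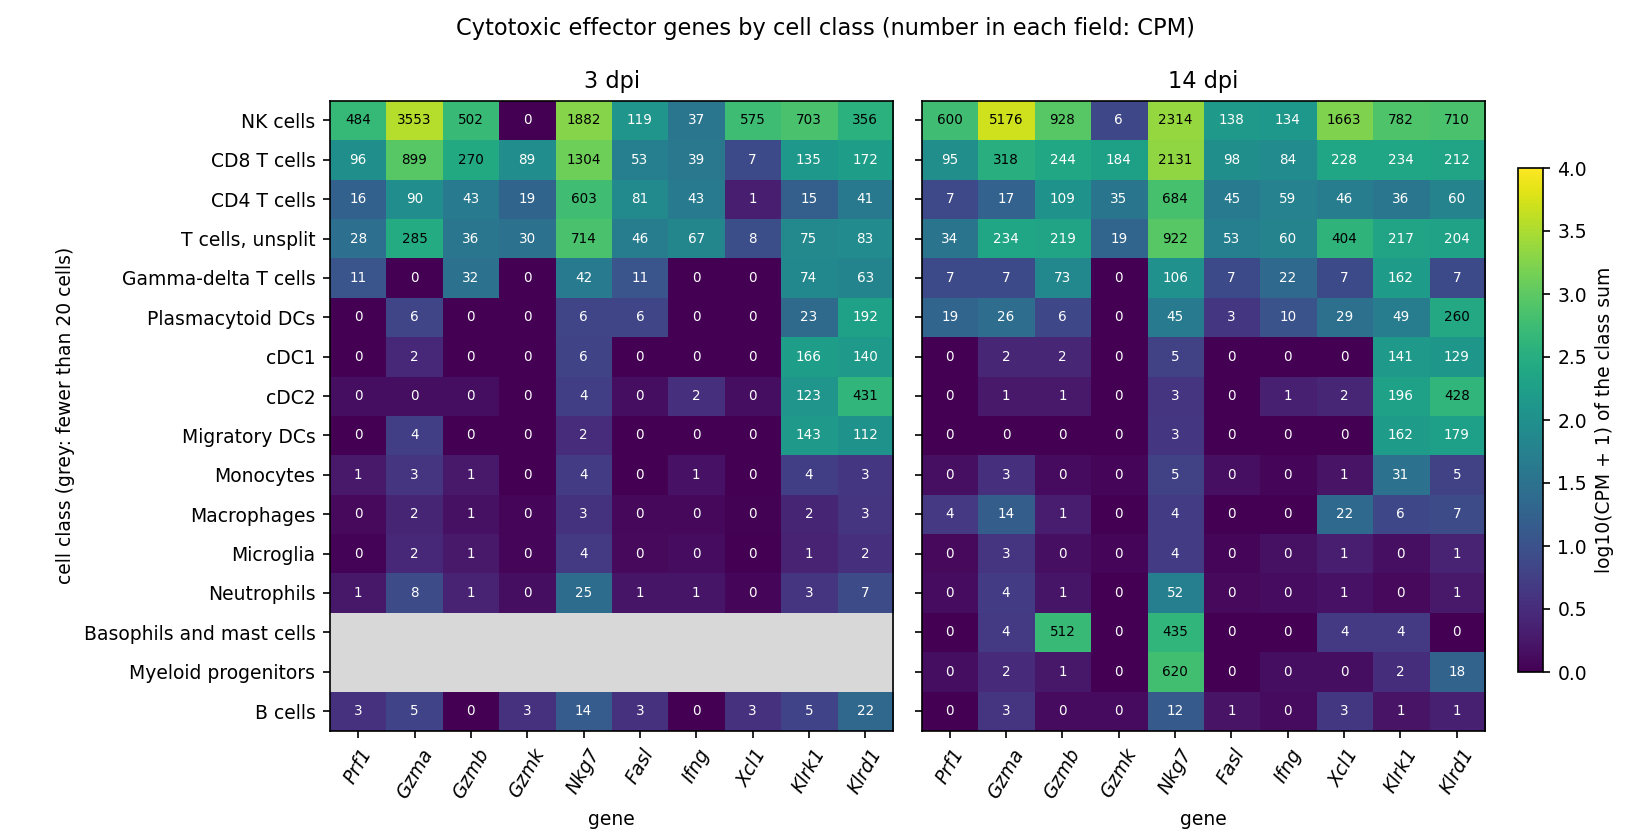
Level of the 10 members (columns) in 16 cell classes (rows) at 3 dpi and 14 dpi, as CPM of the class sum, with the colour on a log10(CPM + 1) scale and grey for classes with fewer than 20 cells. Prf1, Gzma and Xcl1 peak in NK cells, Gzmk in CD8 T cells, and only Nkg7, Gzmb, Klrk1 and Klrd1 reach over 100 CPM outside lymphocytes.

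Among NK and T cells, perforin and granzymes A and B were highest in NK cells and next in CD8 T cells. For Gzmb, basophils and mast cells at 14 dpi lay above CD8 T cells, as given below. Prf1 stood at 599.7 CPM in NK cells (555.1 to 647) and 95.4 CPM in CD8 T cells (80.6 to 112) at 14 dpi, a log2 ratio of 2.65 (2.39 to 2.92). In CD4 T cells it was at 6.57 CPM, from 7 UMIs, and in gamma-delta T cells at 6.81 CPM, from 4 UMIs. Gzma, the tryptase among the granzymes, reached 5176 CPM in NK and 318 CPM in CD8 T cells, a log2 ratio of 4.02 (3.89 to 4.16). Gzmb, which cuts after aspartate and activates caspases, was at 928 and 244 CPM, a log2 ratio of 1.93 (1.76 to 2.10). The NK class held 84.0% of all Gzma UMIs, 74.6% of Prf1 UMIs and 53.7% of Gzmb UMIs of the 14 dpi library.

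Gzmk, the other tryptase, had the opposite distribution. It was at 184 CPM in CD8 T cells (163.5 to 207) and at 6.28 CPM in NK cells, from 7 UMIs of which 1 cell held 4, and its log2 ratio was -4.87 (-6.20 to -3.81). T cells held 92.3% of its UMIs at 14 dpi and NK cells 1.92%. CD4 T cells came next with 34.7 CPM, and gamma-delta T cells had 0 UMIs in 122 cells, which with 3 counts as the limit allows up to 5.11 CPM. At 3 dpi Gzmk was at 89.4 CPM in CD8 T cells and at 0 UMIs in the 34 NK cells. In the GENCODE gene annotation Gzmk spans 54301 bases, begins upstream of the RefSeq start used above and overlaps Esm1 on the opposite strand. Antisense reads were not separated here.

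Among the remaining members, Xcl1 (1663 against 228 CPM, log2 ratio 2.86), Klrk1 (782 against 234, 1.74) and Klrd1 (710.1 against 212, 1.74) were also at least 2-fold higher in NK than in CD8 T cells at 14 dpi. Nkg7, whose product is needed for granule release, was at 2314 and 2131 CPM, a log2 ratio of 0.12 (0.04 to 0.19). This direction turned to -0.15 (-0.23 to -0.07) with classes taken from the markers of each cell, and with TMM scaling, which sets the bulk of genes equal, the ratio was 0.02 with an interval that holds 0. Ifng, at 134 and 83.7 CPM, and Fasl, at 138 and 98.0 CPM, differed by a log2 ratio of 0.68 (0.33 to 1.03) and 0.50 (0.16 to 0.83), and with the markers of each cell the ratio of Ifng was 0.26 (-0.11 to 0.62). In all, 6 of the 10 members were at least 2-fold higher in NK cells and 1 was at least 2-fold lower. Of the 8101 genes with at least 20 UMIs over the 2 classes, 7.25% were past this fold in the same direction and 5.02% in the other. The median log2 ratio was 1.74 for the members and 0.10 for all genes.

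**Figure D2:**
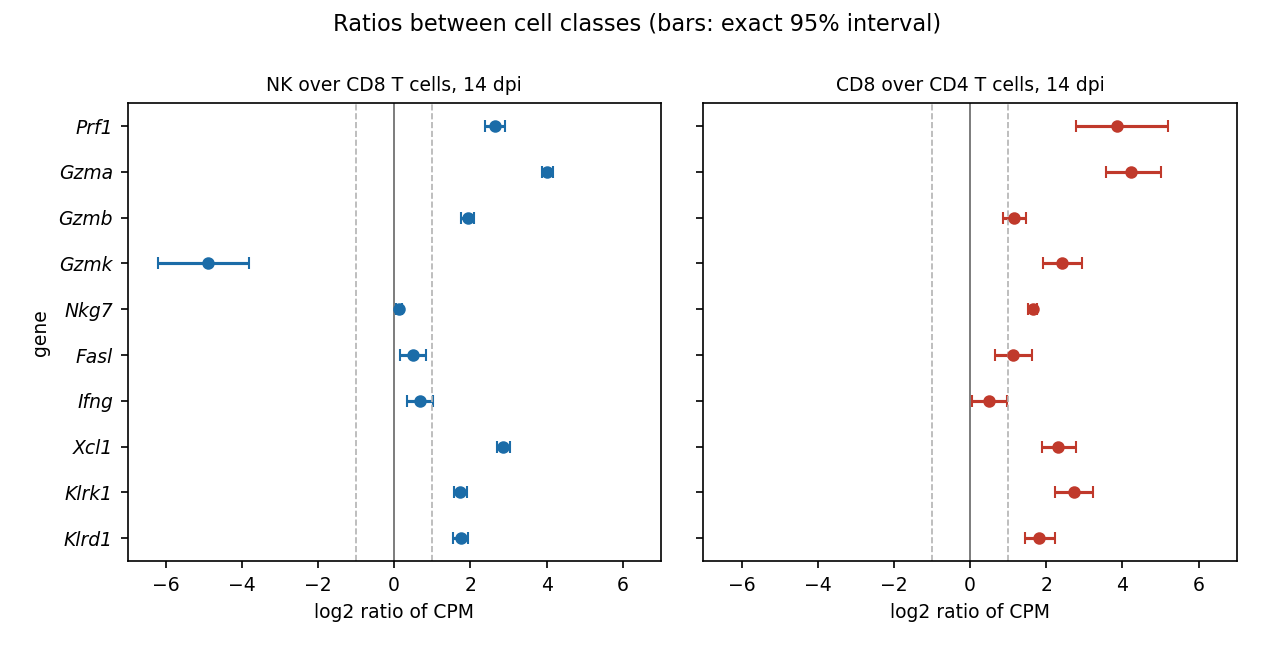
Log2 ratio of CPM for the 10 members between NK and CD8 T cells (left) and between CD8 and CD4 T cells (right) at 14 dpi, with points for the ratio, bars for the exact 95% interval and dashed lines at 2-fold. Prf1, Gzma, Gzmb, Xcl1, Klrk1 and Klrd1 lie to the right in both panels, and Gzmk is far to the left only in the first.

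CD8 T cells were above CD4 T cells in every member. The ratio was at least 2-fold for 9 of 10, compared with 3.08% of 7954 genes, and ranged from a log2 ratio of 1.12 for Fasl (98.0 against 45.1 CPM) to 4.23 for Gzma (318 against 16.9 CPM). Ifng was the exception with 83.7 CPM in CD8 and 59.2 CPM in CD4 T cells, a log2 ratio of 0.50 (0.06 to 0.96). TMM scaling leaves the count at 9 but moves the higher share of all calls from 48.4% to 59.4%. CD4 T cells had 683.7 CPM of Nkg7 and 109 CPM of Gzmb, and 10 of the 207 cells held 77.6% of the Gzmb UMIs.

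Detection in single cells gave the same order of classes. To make depths equal, each cell was thinned to 1000 UMIs. Then 63.8% of NK cells had a Gzma UMI at 14 dpi, 38.6% a Gzmb UMI and 84 of 210 cells a Prf1 UMI, and without thinning the shares were 70.5%, 63.3% and 73.8%. In CD8 T cells the thinned shares were 6.13%, 16.9% and 8.43%, while Gzmk was in 14.6% of CD8 (47.9% unthinned) and 0.476% of NK cells (1.9% unthinned). Nkg7 was found in 91.0% of NK, 83.9% of CD8, 42.5% of CD4 and 8.2% of gamma-delta T cells after thinning. As background, Gzma was in 0.41% of thinned B cells and 0.381% of thinned microglia, and Nkg7 in 1.23% and 0.509%. The median depth before thinning was 4792.5 UMIs in NK cells, 5605 in CD8 T cells, 3624 in B cells and 10617 in microglia.

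**Figure D3:**
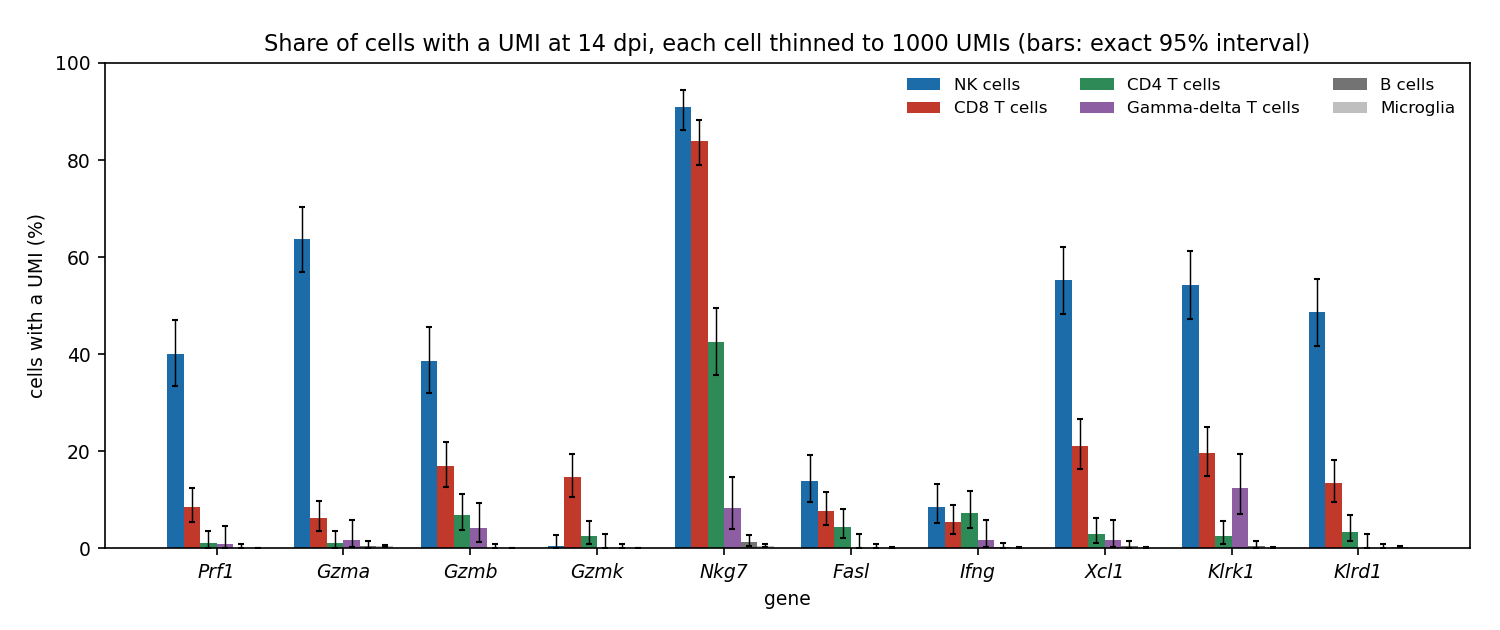
Percent of cells with at least 1 UMI of each member at 14 dpi after thinning each cell to 1000 UMIs, for NK, CD8, CD4 and gamma-delta T cells and for B cells and microglia as background, with exact 95% intervals. NK cells lead for 9 of the 10 members and CD8 T cells for Gzmk (for Ifng only after thinning, with 8.57% of NK and 5.36% of CD8 T cells, since the unthinned shares are 28.1% and 29.1%), and the background bars reach at most 1.23%.

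The members were combined differently within NK and CD8 T cells. At 14 dpi, Prf1 was seen together with at least 1 of the 3 granzymes in 144 of 210 NK cells and in 69 of 261 CD8 T cells, and Prf1, Gzma and Gzmb all together in 110 and 15 cells. A granzyme without Prf1 was more usual in CD8 T cells, with 93 cells compared with 20 NK cells. None of the 4 genes was detected in 35 NK, 72 CD8, 147 of 207 CD4 and 107 of 122 gamma-delta T cells. Gzmk was in 125 CD8 T cells, of which 49 also had Gzmb and 25 Gzma. These counts were taken without thinning, and a missing UMI does not show that the gene was off, so they describe detection.

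Gzma in CD8 T cells came from few cells. Of the 490 Gzma UMIs in this class at 14 dpi, 10 of 261 cells held 86.7% and the highest cell held 99. By contrast, the 10 highest cells held 21.8% of the Gzmk UMIs, 22.4% of the Prf1 UMIs and 11.1% of the Nkg7 UMIs. In NK cells the 10 highest held 19.8% of the Gzma UMIs and 36.3% of the Xcl1 UMIs. At 3 dpi 10 of 145 CD8 T cells held 59.3% of the Gzma UMIs, and 10 of 34 NK cells held 93.6%. Since 10 cells are a much larger part of the 34 than of the 145, these shares are not comparable.

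Subclusters of the lymphocytes differed in these genes, which had not been used to form them. At 14 dpi, 192 NK cells formed a cluster led by Klra4 and Ncr1, with 5476.5 CPM of Gzma, 819.8 of Gzmb and 1369 of Xcl1. The other 18 NK cells were led by the interferon-induced genes Ifi44, Iigp1 and Ifit1 and held 227 UMIs of Gzma, 205 of Gzmb and 468 of Xcl1. In the 192 cells the counts were 5538, 829 and 1384 UMIs. The median depth was 5519 UMIs in the 18 cells and 4721.5 in the 192. With fewer than 20 cells, the smaller cluster is given by its counts alone. Among T cells at 14 dpi, 238 cells led by Cd8b1 and Cd8a had 447 CPM of Gzma, 283 of Gzmb and 192 of Gzmk. A cluster of 67 T cells led by Klra7, Txk, Klra1 and Cd160, in which 86.6% of cells had a UMI of Cd3e and 49.3% of Klrb1c, had 506 CPM of Xcl1 but 39.1 CPM of Gzma and 22.0 CPM of Gzmb. At 3 dpi, the T cluster led by Cd8b1 and Cd8a, 104 cells, had 1405 CPM of Gzma and 15.3 CPM of Xcl1, and a cluster of 105 T cells led by Lef1, Igfbp4 and Satb1 had 32.0 CPM of Gzma and 0 UMIs of Gzmb.

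NK cells with a UMI of Itgam, the CD11b gene that mouse NK cells gain as they mature, were mostly lost through the removal of mixed cells, a step of the study that takes out cells in which Itgam is found beside a lymphocyte marker such as Cd3e or Klrb1c. With mixed cells kept, 129 NK cells at 14 dpi had an Itgam UMI and 201 had none, and 118 of these 129 are taken out by that step. They had 12196 CPM of Gzma compared with 5125 CPM in the 201 others, a log2 ratio of 1.25. Prf1 was at 1360 and 602 CPM (log2 ratio 1.17) and Gzmb at 2074 and 891 CPM (1.22), whereas Xcl1 was at 969 and 1619 CPM (-0.74) and Gzmk at 3 and 7 UMIs. Klrg1, a receptor of mature NK cells, was at 187 and 46.5 CPM, and Cd27, which is lost with maturation, at 45.6 and 83.5 CPM. The NK markers Ncr1 (802 and 521 CPM, log2 ratio 0.62) and Klrb1c (755 and 560 CPM, 0.43) were higher with Itgam as well. So were Nkg7 (0.59), Klrd1 (0.43) and Ifng (0.43). Myeloid genes moved with the split too, with Lyz2 at 349.6 and 246 CPM and S100a9 at 488 and 420.3 CPM, and the part of mixed droplets in the result was not tested. The median depth was 4355 UMIs with Itgam and 4730 without. At 3 dpi the split left 11 and 29 cells. Gzma, with 207 and 285 UMIs, was again higher with Itgam (log2 ratio 0.80, 0.54 to 1.06) and Xcl1, with 6 and 62 UMIs, lower (-2.11, -3.61 to -0.90). Gzmb, with 7 and 50 UMIs, lay in the opposite direction to 14 dpi (-1.57, -2.96 to -0.43), and the interval of Prf1, with 23 and 44 UMIs, held 0 (0.33, -0.47 to 1.09).

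**Figure D4:**
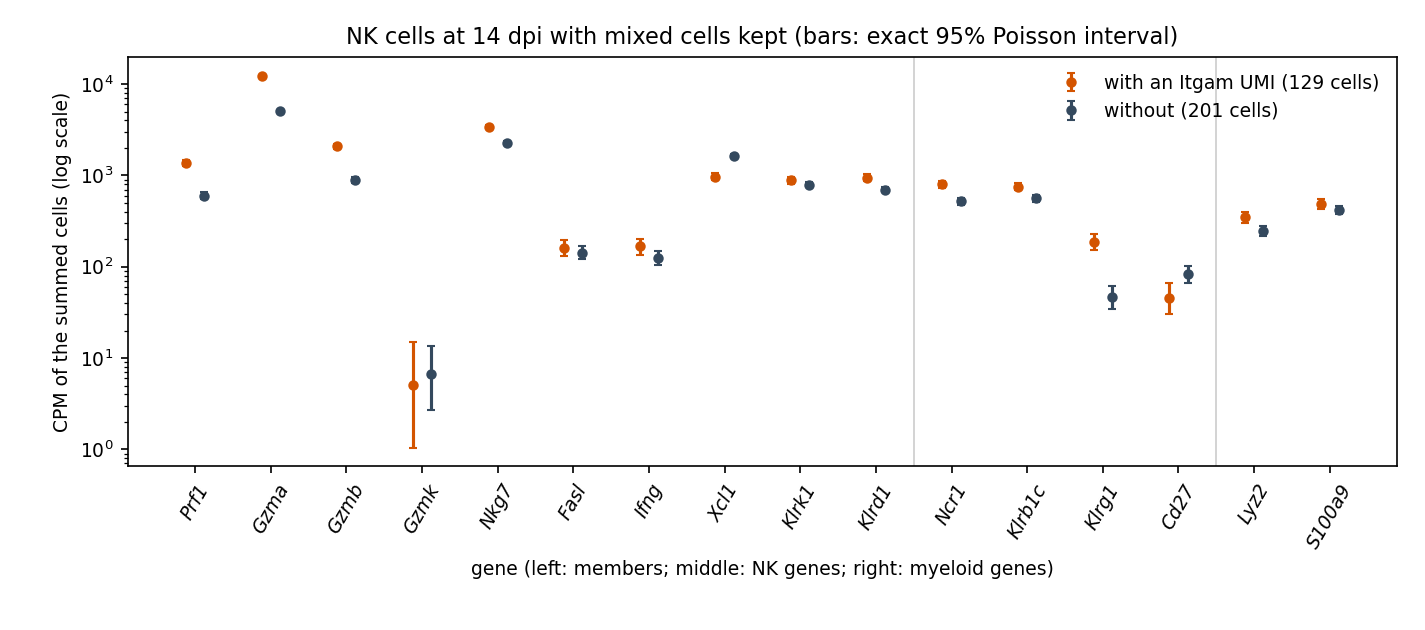
CPM on a log scale of the 10 members, 4 NK genes and 2 myeloid genes in NK cells at 14 dpi with and without a UMI of Itgam, mixed cells kept, with exact 95% Poisson intervals. The 129 cells with Itgam lie above the 201 others for Gzma, Gzmb, Prf1 and Klrg1 and below them for Xcl1 and Cd27. They also lie above, by smaller ratios, for Nkg7, Klrd1, Ifng, Ncr1, Klrb1c and Lyz2.

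Between 3 and 14 dpi the members of CD8 T cells differed in direction. Xcl1 was at 4 UMIs (7.01 CPM) in 145 CD8 T cells at 3 dpi and at 352 UMIs (228 CPM) in 261 cells at 14 dpi, a log2 ratio of 5.03 (3.66 to 6.91). Gzmk, at 89.4 and 184 CPM (1.04), and Ifng, at 38.5 and 83.7 CPM (1.12), were also at least 2-fold higher at 14 dpi. Gzma was lower at 14 dpi, with 318 compared with 899 CPM, a log2 ratio of -1.50 (-1.68 to -1.32). With CD8 T cells taken from the markers of each cell it was -0.28 (-0.45 to -0.11). As 10 cells held 59.3% of the Gzma UMIs at 3 dpi and 86.7% at 14 dpi, these intervals leave out the spread between cells. Prf1 at 96.4 and 95.4 CPM and Gzmb at 269.8 and 244 CPM had ratios whose intervals hold 0. With the markers of each cell these ratios were 0.98 (0.54 to 1.45) and 0.90 (0.63 to 1.17), and with stricter cell filters that of Gzmb was -0.43 (-0.73 to -0.13). Under the markers of each cell, 30 cells of myeloid or unnamed clusters entered the class at 3 dpi and held 57.0% of its UMIs. Thus 3 members were at least 2-fold higher and 1 lower, compared with 10.1% and 5.53% of 7519 genes. TMM scaling lowers every ratio of this comparison by 0.16 and leaves Xcl1 alone past 2-fold on the higher side, and it moves the higher share of all calls from 64.6% to 45.8%. With mixed cells kept 1 member was past 2-fold on that side, and with the markers of each cell there were 6.

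The CD8 class was made up differently at the 2 times, and the part of this in the ratios was not tested. At 14 dpi 204 of its 261 cells were in the cluster led by Cd8b1 and Cd8a. At 3 dpi 67 of 145 were in the cluster of that kind, 43 in the cluster led by Lef1 and 27 in a cluster with mostly CD4 cells. Macrophage RNA in lymphocytes differed as well, and its part was not tested. The summed macrophage markers, 8 genes, were at 1367 CPM in CD8 T cells, 1296 in CD4 T cells, 1370.1 in NK cells and 1605 in B cells at 3 dpi, and at 19.7 to 28.7 CPM in the same classes at 14 dpi. The Cell Ranger version written in the matrices, 3.0.1 at 3 dpi and 3.1.0 at 14 dpi, cannot be told apart from the time point.

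In CD4 T cells the pattern over time was partly alike. Xcl1 was at 1 UMI in 206 cells at 3 dpi and 49 UMIs in 207 cells at 14 dpi. Gzmb (43.4 and 109 CPM, log2 ratio 1.33, 0.78 to 1.90) and Klrk1 (15.2 and 35.7 CPM, 1.23, 0.29 to 2.26) were also at least 2-fold higher at 14 dpi, with intervals that reach below 2-fold. Gzma, at 90.3 and 16.9 CPM (-2.42), and Prf1, at 14 and 7 UMIs (-1.32, -2.87 to 0.08), were lower. These UMIs came from few cells. At 3 dpi 10 of 206 cells held 89.6% of the Gzma UMIs. At 14 dpi the 10 highest of 207 cells held 77.6% of the Gzmb, 68.4% of the Klrk1 and 67.3% of the Xcl1 UMIs. The background was 9.47% of 7325 genes higher and 5.75% lower. TMM lowers the ratios by 0.20 and then 3 members, Fasl being the added one, are past 2-fold on the lower side, and the higher share of all calls goes from 62.2% to 41.1%.

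In NK cells Xcl1, at 575 CPM in 34 cells at 3 dpi and 1663 CPM in 210 cells at 14 dpi (log2 ratio 1.53, 1.17 to 1.92), and Ifng, at 4 and 149 UMIs (1.87, 0.49 to 3.77), were at least 2-fold higher at 14 dpi, compared with 14.9% of 6246 genes. A single NK cell held 37 of the 63 Xcl1 UMIs at 3 dpi. Gzma (3553 and 5176 CPM), Gzmb (502 and 928), Prf1 (484 and 599.7), Klrd1 (356 and 710.1), Nkg7 (1882 and 2314), Klrk1 (703 and 782) and Fasl (119 and 138) were higher at 14 dpi by less than 2-fold. TMM lowers these ratios by 0.11 and leaves the same count of 2, with the higher share of all calls at 55.6% in place of 66.4%. Removal of mixed cells takes out 118 NK cells with an Itgam UMI at 14 dpi and 8 at 3 dpi. At 14 dpi NK cells with Itgam had more Gzma, Gzmb and Prf1 than those without, as given above. The ratios above, also those under 2-fold, therefore hold only for the NK cells left by this step. With mixed cells kept, NK cells with Itgam held 207 UMIs of Gzma and 7 of Gzmb in 11 cells at 3 dpi. At 14 dpi they held 7221 and 1228 in 129 cells. Those without Itgam held 285 and 50 UMIs in 29 cells at 3 dpi, and 5402 and 939 in 201 cells at 14 dpi. Ratios over time with these cells kept are not given here. The 3 classes share no cells, but each comparison uses the same 2 libraries, so the recurrence of Xcl1 is not independent between classes.

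**Figure D5:**
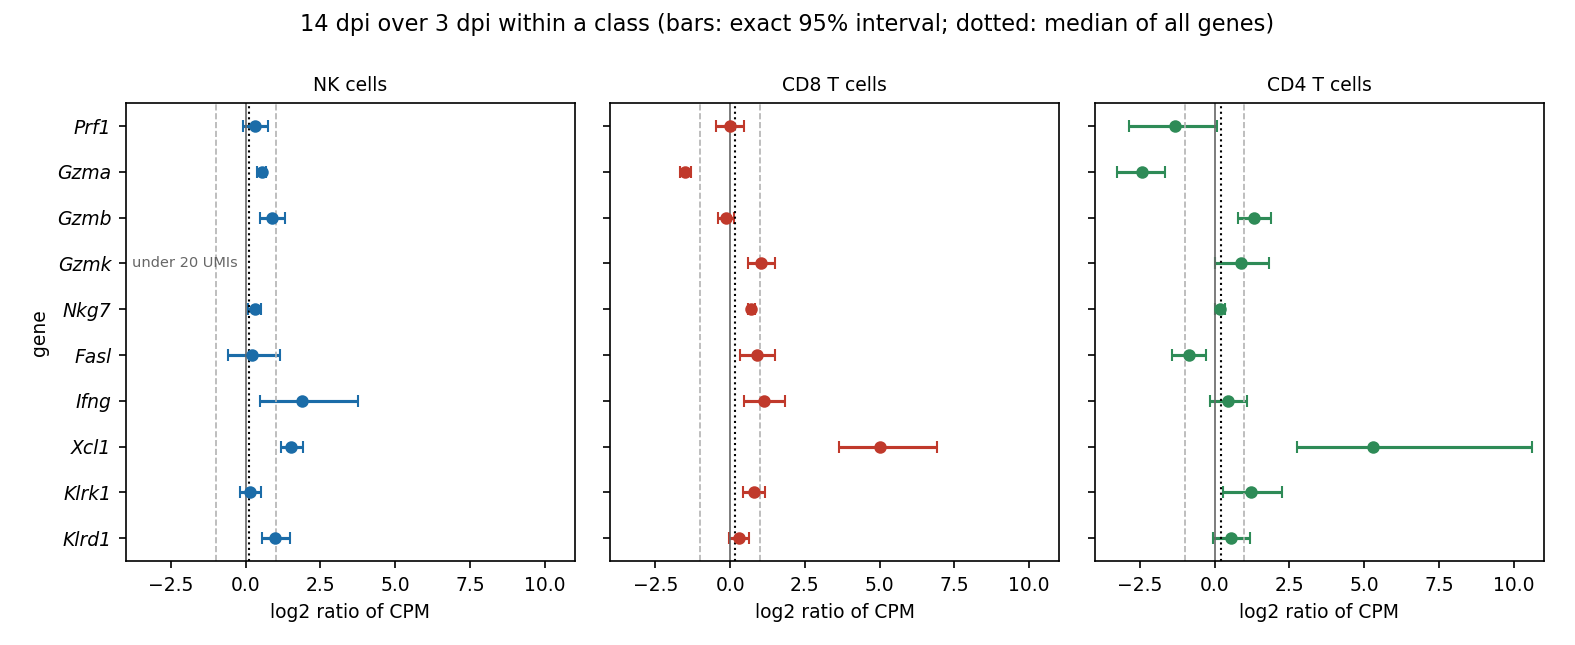
Log2 ratio of CPM between 14 dpi and 3 dpi for the 10 members in NK, CD8 T and CD4 T cells, with exact 95% intervals, dashed lines at 2-fold and a dotted line at the median of all genes. Xcl1 lies to the right in all 3 classes, and Gzma lies to the left in CD8 and CD4 T cells but not in NK cells.

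Gamma-delta T cells had few cytotoxic transcripts. At 14 dpi the 122 cells, which were led by Trdc, Tcrg-C1, Cd163l1 and Il17a, held 95 UMIs of Klrk1 (162 CPM), 62 of Nkg7 (105.5 CPM), 43 of Gzmb (73.2 CPM) and 13 of Ifng, and 4 each of Prf1, Gzma, Fasl, Xcl1 and Klrd1. Klrk1 was the member found most widely, in 12.3% of thinned cells (35.2% unthinned), whereas 10 cells held 95.3% of the Gzmb UMIs. Klrd1, at 6.81 CPM here, was at 212 CPM in CD8 T cells, whereas Klrk1 was at 162 and 234 CPM. At 3 dpi the 24 cells held 22 UMIs of all members.

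In the sham libraries lymphocytes with these genes were few, and most UMIs of the members lay in myeloid cells. Of 7172 UMIs of the members in the standard sham, 75.1% were in myeloid and 12.9% in T clusters, and of 938 in the ActD sham 57.5% and 42.2%. The 26 T or NK cells of the standard sham with neither or both of the CD8 and CD4 markers had 1770.4 CPM of Xcl1 (1574 to 1984), 648 of Gzma, 168 of Prf1 and 1188 of Nkg7. These levels leaned on few cells, as the highest cell held 81 of 295 Xcl1 UMIs and 39 of 108 Gzma UMIs. The 23 such cells of the ActD sham held 44 UMIs of Xcl1, 41 of Gzma, 6 of Prf1 and 37 of Nkg7. There the highest cell held 37 of the Xcl1 UMIs and all 41 of Gzma. All genes together gave 166633 UMIs in the 26 cells and 551181 in the 23. Gzmk had 0 UMIs in the whole standard sham library and 2 in the ActD sham, compared with 97 at 3 dpi and 364 at 14 dpi. The 14 CD8 T cells of the standard sham held 93 UMIs of Nkg7, 4 of Prf1 and 1 of Gzma, and the 5 of the ActD sham 77, 3 and 0. As the libraries differ in cell numbers and in dissociation, these counts are given side by side without comparison.

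The 2 receptor genes were also found in dendritic cells. At 14 dpi Klrd1 was at 428 CPM (402 to 455) and Klrk1 at 196 CPM (179 to 215) in the conventional dendritic cells called cDC2, which present antigen to CD4 T cells. In cDC1 they were at 129 and 141 CPM, and in migratory DCs, the Ccr7-positive cells on their way to lymph nodes, at 178.5 and 162 CPM. For Klrd1 the cDC2 level was above that of CD8 T cells, at 212 CPM. The 3 dpi library had 431 and 123 CPM in cDC2, and the 24 cDC2 of the standard sham 211 and 169 CPM. At 14 dpi the 161 cDC2 led by Cd209a and H2-Eb1 had 510.1 CPM of Klrd1 and 159.8 of Klrk1. The 90 led by Cd7 and Cd209a had 285 and 259 CPM. In the 90, the monocyte marker Ly6c2 was at 2645 and the MHC II gene H2-Ab1 at 3996 CPM. In the 161 they were at 98.9 and 11879 CPM. At 3 dpi 179 cDC2 with 40.4 CPM of Cd209a held 735 Klrd1 UMIs, and 107 with 249 CPM held 323. Whether each class is 1 cell type was not tested. Of the other 8 members none passed 7 UMIs in cDC2 at 14 dpi, and NK markers summed to 71.7 CPM there, with 6 of 10 at 0, among them Ncr1 and Klrb1c, while they summed to 4290.5 CPM in NK cells. After thinning, Klrd1 was in 82 and Klrk1 in 34 of 251 cDC2, compared with 0 of 488 B cells, which allows a share of up to 0.615%, and 0.41% of B cells.

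Plasmacytoid DCs, the main makers of type I interferon, had Klrd1 and few UMIs of the killing genes. Klrd1 was at 259.5 CPM (206 to 323) in 40 cells at 14 dpi, 192 CPM in 26 cells at 3 dpi and 143 CPM in 71 cells of the standard sham. In the standard sham 54.9% of the cells had a UMI of the marker Ccr9, compared with 92.5% at 14 dpi and 96.2% at 3 dpi. Myeloid progenitor markers summed to 1742 CPM there and to 5.83 CPM at 3 dpi, and their part in the values was not tested. Gzmb was at 2 UMIs at 14 dpi and 0 in the other libraries, Prf1 at 6, 0 and 0 UMIs, and Gzma at 8, 1 and 0 UMIs. Klrk1 stood at 48.7, 23.3 and 27.7 CPM. NK markers summed to 152.5 CPM in these cells at 14 dpi, with Klra9 and Klrb1b at 0 and the other 8 of 10 detected, to 5.83 CPM at 3 dpi with 1 of 10 detected, and to 8.03 CPM in the standard sham with 3 of 10, and their part in the counts of the killing genes was not tested. Among myeloid cells, monocytes had Klrk1 at 30.6 CPM at 14 dpi, 4.43 CPM at 3 dpi, 14.2 CPM in the standard and 48.8 CPM in the ActD sham. Of the monocytes in the standard sham, the cluster led by S100a4 and Fn1 with 75.0 CPM of Ace, a gene of patrolling monocytes, had 38 UMIs of Klrk1 in 203 cells (13.7 to 26.6 CPM, median depth 9795 UMIs). The cluster with no Ace UMI had 24 in 95 cells (6.41 to 14.9 CPM, median depth 25220 UMIs), and the intervals overlapped.

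Nkg7 was also a gene of immature myeloid cells. Myeloid progenitors had 620.2 CPM at 14 dpi (589.7 to 652), 811.5 CPM in the standard sham and 125 CPM in the ActD sham, with at most 5 UMIs of Gzma and 1 of Prf1. In neutrophils its level differed between clusters. In the standard sham, 80 neutrophils led by Camp, Fcnb and Ngp had 301 CPM, and 379 led by Retnlg and Mmp8 had 3.30 CPM. At 14 dpi, 185 neutrophils led by Fcnb, Camp and Chil3 had 135 CPM and the other 3 neutrophil clusters 5.93 to 9.52 CPM. The proliferation gene Mki67 was at 899 CPM in the former and 3.20 to 14.7 CPM in the latter. At 3 dpi Nkg7 was at 45.4 CPM in 134 cells led by Camp and Ngp and 10.4 CPM in the 1775 others. Those 134 had 1394 CPM of Camp, compared with 52208.5 in the 185 cells at 14 dpi. Their H2-Ab1 was at 615 CPM and their median depth 21485.5 UMIs, compared with 172 CPM and 2287 UMIs in the 1775 others. The part of mixed droplets in this cluster was not tested. Level of Camp alone did not track Nkg7, since the cluster led by Ltf and Ngp at 14 dpi had 40699 CPM of Camp and 5.93 CPM of Nkg7.

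Basophils and mast cells had Gzmb and Nkg7 and almost none of the other members. Gzmb was at 512 CPM (428 to 606) in 32 cells at 14 dpi and at 190.2 CPM in 65 cells of the standard sham, where this class held 407 of the 436 Gzmb UMIs of the library. Nkg7 was at 435 and 119 CPM. Prf1 was at 0 and 1 UMI, Gzma at 1 and 0. In the injured cord, microglia, B cells and the macrophages at 3 dpi had no member above 21.8 CPM, the level of Klrd1 in B cells at 3 dpi from 8 UMIs. The 204 macrophages at 14 dpi held 113 UMIs of the members, 59.0 CPM for all together (48.6 to 70.9), compared with 10.6 CPM in macrophages at 3 dpi.

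Other genes of the pathway were read from 9 lists. The counts between NK and CD8 T cells stand beside 7.25% of all genes at least 2-fold higher and 5.02% lower. In NK compared with CD8 T cells at 14 dpi, Gzmc was at 218 and 2.60 CPM and Gzmm at 10.8 and 27.9 CPM, while the remaining granzymes had fewer than 20 UMIs. Of 4 serpins that protect the killer from its own granzymes, Serpinb9 (294 and 43.5 CPM), Serpinb6b (207 and 42.8) and Serpinb9b (32 and 1 UMIs) were at least 2-fold higher and Serpinb6a lower. Of 14 genes of granule storage and release, 2 were higher, Sytl3 (182 and 77 UMIs) and Stx11. Among 9 measured transcription factors of cytotoxic cells, Eomes (238 and 89.6 CPM), Tbx21 (97.9 and 41.5), Zeb2 and Bhlhe40 were higher and none lower. Of 4 measured receptor partners, Klrc1, Klrc2 (258 and 68.8 CPM) and Tyrobp (2465 and 254 CPM), which signals for many NK receptors, were higher, and Hcst, the adaptor of NKG2D, was at 534 and 861 CPM. Of 7 other death ligands and cytokines, the chemokine genes Ccl3 and Ccl4 were higher and Lta lower. Of 6 measured cytokine signals to killer cells, Il2rb (962 and 288 CPM), Il12rb2 and Il18rap were higher. The lists of receptors and ligands had 0 of 7 past 2-fold, and that of interferon gamma targets 1 higher and 1 lower of 6.

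Between CD8 and CD4 T cells at 14 dpi, Eomes was at 89.6 and 3.76 CPM and was the 1 transcription factor of 9 past 2-fold. Of the granule genes 1 of 14, Ctsw, was past it on the higher side and 0 on the lower, compared with 3.08% and 3.28% of all genes. Gzmm was at 43 and 1 UMIs, and Klrc1 and Klrc2, which pair with Klrd1, were at 61.7 and 7.51 and at 68.8 and 8.45 CPM. Ccl5, an abundant chemokine of effector T cells, was at 6294 and 2269.8 CPM.

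Over time in CD8 T cells, 5 of 6 measured interferon gamma targets were at least 2-fold higher at 14 dpi, among them Gbp4 (47.3 and 138 CPM at 3 and 14 dpi) and Gbp5, compared with 10.1% of all genes, and the median log2 ratio was 1.40 beside 0.15 for all genes. In CD4 T cells 3 of 6 were, compared with 9.47%, and in NK cells 4 of 6, compared with 14.9%. TMM scaling moves the higher share of all calls in each of these comparisons, as given above. Of 8 measured other death ligands and cytokines in CD8 T cells, Ltb (255.8 and 852 CPM at 3 and 14 dpi) was at least 2-fold higher at 14 dpi, and Ccl3 (112 and 17.5), Ccl4 (338 and 116), Ccl9 (133 and 4.54) and Tnf (47.3 and 19.5) were lower. The transcription factor genes Eomes (24.5 and 89.6 CPM), Hopx and Id2 were higher and Zeb2 lower. In the same class the macrophage markers given above were lower at 14 dpi, as was the myeloid gene Lyz2 (2565 and 254 CPM). The part of such RNA in the lower values of Ccl3, Ccl4, Ccl9, Tnf and Zeb2 was not tested. Of the 14 granule genes, Stx11 was higher, from 2 and 20 UMIs, and 3 were lower, compared with 5.53% of all genes. These 3, Ctsd, Ctsc and Lamp2, which macrophages also express strongly, were lower alongside the macrophage markers given above, whose part in this was not tested.

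The partners of the members on other cells had clear places. Xcr1, the receptor for the Xcl1 product, was at 276 CPM in cDC1 at 14 dpi and 243 CPM at 3 dpi, and at most 13.4 CPM in every other dendritic, myeloid or B cell class named here. Fas, the target of Fas ligand, was highest in migratory DCs, with 108 CPM at 14 dpi and 60.4 at 3 dpi. The same cells had 734 CPM of Il12b, which encodes a subunit of the NK and T cell stimulating cytokines IL-12 and IL-23, at 14 dpi and 4.47 at 3 dpi, and high levels of the granzyme inhibitors Serpinb9 (502 and 166 CPM) and Serpinb6b (1239.5 and 347 CPM). Cxcl9, a chemokine gene that interferon gamma induces, was at 146 CPM in cDC1 and 73.4 CPM in cDC2 at 14 dpi, with 0 UMIs and 1 UMI at 3 dpi. H2-T23, the ligand of CD94 with NKG2A, was at 272 and 35.5 CPM in microglia and at 386 and 84.1 CPM in CD8 T cells at 14 and 3 dpi. Of the NKG2D ligands, Raet1e reached 32 and Raet1d 34 UMIs in the 432 monocytes at 3 dpi, and Ulbp1 31.6 CPM in B cells at 14 dpi.

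Over the 48 class sums with at least 20 cells, the genes closest in level to the members' sum were Tnfrsf18 (r = 0.83), B4galnt1, Runx3, Acot7 and Fam189b. For Prf1 they were Gzma (0.97), Klrc2 (0.96) and Eomes (0.95), and for Gzma Prf1, Klrc2 and Klrc1. For Gzmb they were Sytl3 (0.91), Tnik and Rab37, for Gzmk the T cell genes Themis (0.86), Hdgfl3 and Ubash3a, and for Nkg7 Pglyrp2 (0.81), Fam189b and Gzmb. Ifng was closest to Sh2d1a (0.96), Tbx21 and Fasl, and Fasl to Ctsw (0.97), Gm2682 and Tbx21. Xcl1 was closest to Klra9 (0.94), Samd3 and Klre1, and 2 of these 3 had served as NK markers. Klrk1 and Klrd1 were closest to each other (0.87), followed by Runx3 for the former and Fyn and Cd7 for the latter. The sums share 4 libraries and differ in depth, so these correlations only describe where the genes were found.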

How the data were processed

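The authors captured CD45+ cells of the mouse spinal cord on the 10x Chromium 3′ platform and deposited untransformed UMI counts for every gene in every barcode, made with Cell Ranger against mm10 per the labels. In all barcodes the libraries held 60412094 (standard sham), 27447471 (sham with ActD), 125270696 (3 dpi) and 129935880 UMIs (14 dpi) over 31053 genes. Strand handling is not given in the sources used here.

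Barcodes under 600 detected genes or above 10% mitochondrial UMIs were dropped. Mixed cells, in which Itgam was found beside lymphocyte markers such as Cd3e or Klrb1c, were removed, as were Scrublet doublets at 0.8% per 1000 cells. Each library was clustered with Scanpy 1.11.5 (2000 variable genes, 50 components, 20 neighbours, resolution 0.6), leaving out the members and pathway genes, and clusters were named from marker lists. UMIs were summed per class. Classes under 20 cells are given as UMI counts. Ratios needed 20 UMIs over both classes, intervals are exact Poisson or conditional ones, shares have Clopper-Pearson intervals, and thinning used 1000 UMIs per cell. TMM factors came from edgeR 4.0.16. With 1 library per condition no test was run. The counting scripts were tested on simulated data.

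The members and lists were chosen with earlier results of these data known. By rule the text names all 10 members, pathway genes with at least 20 UMIs in NK or T cells, and the 5 (for the sum) or 3 (for a member) genes with the highest Pearson r of log2(CPM + 10) over class sums of at least 20 cells, among genes with at least 200 UMIs. Cluster-leading genes, Mki67, Ace and the pathway genes shown for dendritic cells, monocytes and microglia were named after their values were seen. A few genes that these rules name are not reported here.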

Additional observations from a re-analysis of the deposited data

How the results depend on the processing

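The count of members at least 2-fold higher in NK than in CD8 T cells was 6 under every alternative run. The summed level in NK cells at 14 dpi, 12450.5 CPM, was 9075 with classes taken from the markers of each cell, 12134 with looser and 12070 with stricter cell filters, 12055 with doublets kept and 15846 with mixed cells kept. In CD8 T cells, 3829 CPM became 3450 and 4010 with the markers of each cell and with mixed cells kept. The log2 ratio of these sums, 1.70, was 1.40 with the markers of each cell, 1.64 with looser and 1.63 with stricter filters, 1.64 with doublets kept, 1.98 with mixed cells kept and 1.60 with TMM. The ratio of 14 to 3 dpi in CD8 T cells, 0.32, was 1.29, 0.022, 0.20 and 0.16 with the markers of each cell, stricter filters, mixed cells kept and TMM. In CD4 T cells 0.20 turned to -0.0027 with TMM. The count of members higher at 14 dpi in CD8 T cells, 3, was 6 with the markers of each cell, 1 with mixed cells kept, 1 with TMM, 2 with looser and 4 with stricter filters. With the markers of each cell, 30 cells of myeloid or unnamed clusters entered the CD8 class at 3 dpi and held 57.0% of its UMIs. For the other settings the cause was not tested. Of the single-gene values, 40 moved by more than their counting interval and 127 did not. Of the values of the main results, 20 were classed as moved, 1 as reversed and 35 as the same. No paired analysis was possible because each condition was 1 library.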
